A study of Mus musculus with 47 samples.

Results

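Transcript levels of 10 genes of antigen presentation were examined in mouse cortex, 6 of the MHC class I pathway (*B2m*, *H2-K1*, *H2-D1*, *Tap1*, *Tap2* and *Tapbp*) and 4 of the MHC class II pathway (*H2-Aa*, *H2-Ab1*, *H2-Eb1* and *Cd74*). The genes were chosen by name and matched through their Ensembl identifiers in GENCODE M21, and all 10 were found among the 54281 genes of the TPM table. RNA was sequenced from the cortex of 47 male C57BL/6J mice, 1 library per mouse. From an age of 2.5 months, 23 mice were fed control chow and the other 24 were fed PLX5622 (1200 ppm in chow) for 10 days, an inhibitor of CSF1R, the receptor on which microglia depend for survival. Mice of each diet were harvested at 6 Zeitgeber times (ZT, hours after lights on) every 4 h from ZT2 to ZT22, with 4 mice in each of the 12 groups except 3 in the control group at ZT14. The comparisons asked how class I and class II transcripts differed between diets and whether their levels changed over the day.

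MHC class I molecules consist of a heavy chain, here *H2-K1* or *H2-D1*, and the light chain β2-microglobulin encoded by *B2m*, and they display peptides from inside the cell to CD8 T cells. *Tap1* and *Tap2* encode the transporter that moves peptides into the endoplasmic reticulum, and tapasin, encoded by *Tapbp*, links the transporter to the empty heavy chain. Nearly every nucleated cell can make class I molecules. Class II molecules pair an alpha chain (*H2-Aa*) with a beta chain (*H2-Ab1*), are accompanied by the invariant chain (*Cd74*) until a peptide is loaded, and are largely restricted to professional antigen-presenting cells. In the healthy brain such cells are found mostly at its borders, and activated microglia can also make class II molecules. *H2-Eb1* encodes the beta chain of the second class II molecule, whose alpha chain gene is defective in C57BL/6 mice.

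Of the 10 genes, 8 lie on chromosome 17 within or beside the H2 complex, *B2m* lies on chromosome 2 (chr2:122147686-122153083) and *Cd74* on neither. In the GRCm38 coordinates of GENCODE M21 the order along chromosome 17 is *Tapbp* (chr17:33915899-33929292), *H2-K1* (chr17:33996017-34000347), *Tap1* (chr17:34187553-34197225), *Tap2* (chr17:34203527-34216321), *H2-Ab1* (chr17:34257689-34269419), *H2-Aa* (chr17:34282744-34287823), *H2-Eb1* (chr17:34305867-34316674) and *H2-D1* (chr17:35262730-35267499). All are protein-coding. The peptide transporter genes thus lie between *H2-K1* and the 3 class II genes of this chromosome.

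The genes of each class are known to share promoter elements, so the bases just before the start are shown for 2 class I genes that behaved differently, *B2m* and *H2-K1*, and for 2 class II genes that fell together, *H2-Aa* and *H2-Eb1*. Each is 150 bases long, from 160 to 11 bases before the RefSeq start of GRCm38.p6, read 5′ to 3′ on the strand of the gene. Capitals mark matches on either strand to CCAAT (the core of the Y box, bound by NF-Y), TGACG (the core of the cyclic AMP response element, as in the X2 box), GAAANNGAA (a pattern of interferon response elements) and GGATTCCC (an NF-κB site).
B2m: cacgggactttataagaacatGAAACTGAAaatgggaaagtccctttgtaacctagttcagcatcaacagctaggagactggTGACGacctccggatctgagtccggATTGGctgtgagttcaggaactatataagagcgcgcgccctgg
H2-K1: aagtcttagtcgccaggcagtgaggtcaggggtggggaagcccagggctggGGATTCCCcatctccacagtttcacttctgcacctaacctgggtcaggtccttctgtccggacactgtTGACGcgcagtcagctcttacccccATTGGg
H2-Aa: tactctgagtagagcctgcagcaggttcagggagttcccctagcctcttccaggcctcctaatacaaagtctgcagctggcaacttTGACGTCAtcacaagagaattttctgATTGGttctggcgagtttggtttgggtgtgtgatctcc
H2-Eb1: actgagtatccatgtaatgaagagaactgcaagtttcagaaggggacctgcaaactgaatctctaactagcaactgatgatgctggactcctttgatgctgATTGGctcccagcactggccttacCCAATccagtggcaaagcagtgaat
The *B2m* sequence is from chr2:122147527-122147676 (plus strand), that of *H2-K1* from chr17:34000358-34000507 (minus strand), that of *H2-Aa* from chr17:34287834-34287983 (minus strand) and that of *H2-Eb1* from chr17:34305707-34305856 (plus strand). All 4 hold CCAAT on at least 1 strand, as do 34.5% of the 27025 RefSeq promoters within the 250 bases before the start. TGACG was found in *B2m*, *H2-K1* and *H2-Aa*, in the last of them on both strands in overlapping positions, and in 17.9% of all promoters. GAAANNGAA was found in *B2m* and in 7.16% of promoters, and GGATTCCC in *H2-K1* and in 0.851%. Only exact matches were counted, so a site that differs from a pattern by a single base is unmarked. An unmarked sequence therefore does not show that such an element is absent. RefSeq promoters were at hand for 7 of the 10 genes, without *H2-Ab1*, *Tap2* and *Cd74*. Those of *H2-D1*, *Tap1* and *Tapbp* are not shown. Within the 250 bases, *H2-D1* held GGATTCCC, TGACG and CCAAT, as *H2-K1* did. *Tap1* held TGACG and CCAAT, and *Tapbp* held CCAAT.

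The libraries held 16597987 to 27626161 counted reads (median 18314954 under control chow and 21476967.5 under PLX5622). Levels are given as TPM, transcript abundances relative to the library's total after division of reads by transcript length, and so can be compared between genes. The diets were compared with limma on log2(TPM + 1) for 14580 genes (mean TPM of 1 or more), with cosine and sine terms of the harvest time in the model, and a difference was called at a Benjamini-Hochberg adjusted p under 0.05. All 10 genes passed the filter. As a check of the diet, all 12 listed microglial genes fell, and their summed TPM was 357 to 571 in control libraries and 18.7 to 87.3 in PLX5622 libraries. Neuronal transcripts were present, with 3508 to 5067 TPM summed over the 6 genes listed. Among control libraries, ZT18 replicate 3 stood apart in class II, with 6.08 TPM summed over the 4 genes against 12.5 to 30.9 in the other 22. It also had the lowest read count, 16597987. Among control libraries its sums of the border macrophage list (12.7 TPM) and the mural list (99.3 TPM) were the lowest and its sum of the choroid plexus list (1194 TPM) was the highest, and the part of these in its class II level was not tested. Fold changes without it are given below for all 10 genes.

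All 4 class II genes fell in PLX5622 mice, to between 37.9% and 44.9% of their control means, while of the 6 class I genes *B2m* fell, to 76.0%, and *H2-D1* was called lower on the counts but not on the TPM values. Of all genes tested, 2.58% were called lower and 0.871% higher, and 5 of the 10 members were called lower. No member was called higher by limma, edgeR or DESeq2, and 0 had an unadjusted p under 0.05 in that direction with any of these tools. The median log2 fold change was -0.94 over the class II genes, -0.08 over the class I genes and 0.03 over all 14580 genes. The difference between the classes was itself not tested. In bulk tissue, fewer cells of a type and less RNA per cell cannot be told apart.

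**Figure D1:**
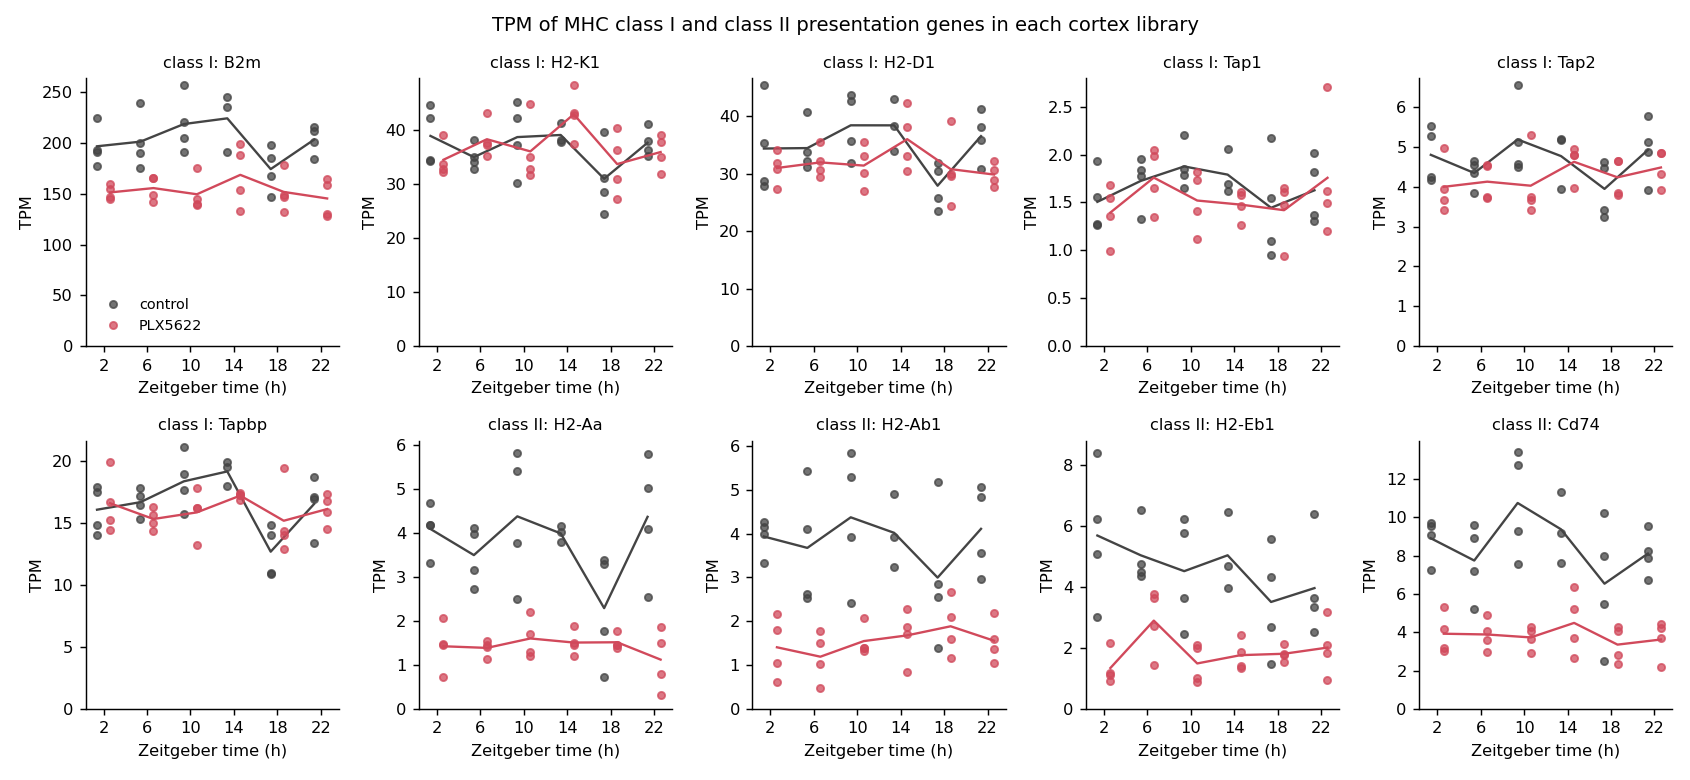
TPM of each gene (y axis, from 0) against Zeitgeber time in hours (x axis) for 23 control libraries (grey) and 24 PLX5622 libraries (red), with lines through the group means. The class II genes and *B2m* were lower in PLX5622 mice at all 6 times, whereas the ranges of the other 5 class I genes overlap over the whole day, though not at ZT14 for *Tap1* and *Tapbp*.

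The class II alpha chain gene *H2-Aa* had a lowest, median and highest level of 0.729, 3.98 and 5.82 TPM in control mice and 0.309, 1.45 and 2.20 TPM in PLX5622 mice. Every PLX5622 library was below the control median, and 21 of 23 control libraries were above every PLX5622 library. The mean fell from 3.76 ± 1.22 TPM (SD, n = 23) to 1.43 ± 0.416 TPM (SD, n = 24), a log2 fold change of -0.94 with a standard error of 0.10 on the log2(TPM + 1) scale (limma, adjusted p = 7.2e-10).

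Its partner *H2-Ab1*, the beta chain, ranged from 1.40 to 5.84 TPM with a median of 3.92 TPM in control mice, and from 0.471 to 2.66 TPM with a median of 1.55 TPM in PLX5622 mice. The groups overlapped little, with 18 of 23 control libraries above every PLX5622 library. The log2 fold change was -0.92 with a standard error of 0.10 (limma, adjusted p = 8.1e-10).

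*H2-Eb1*, the beta chain without a functional partner in this strain, fell by a like amount. Its control libraries ranged from 1.46 to 8.41 TPM around a median of 4.51 TPM and its PLX5622 libraries from 0.872 to 3.77 TPM around 1.82 TPM. It was the most variable of the 10 genes, with a coefficient of variation of 36.4% in control and 43.2% in PLX5622 mice, and 15 control libraries lay above every PLX5622 library. The log2 fold change was -0.94 with a standard error of 0.12 (limma, adjusted p = 4.1e-08).

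*Cd74*, the invariant chain that guides class II molecules to the compartment where peptides are loaded, was the most abundant class II transcript. It ranged from 2.49 to 13.4 TPM (median 8.93 TPM) in control mice and from 2.17 to 6.38 TPM (median 3.89 TPM) in PLX5622 mice, and 20 of 23 control libraries exceeded every PLX5622 library. The log2 fold change was -0.96 with a standard error of 0.10 (limma, adjusted p = 3.1e-10). The lowest control value of all 4 class II genes was that of ZT18 replicate 3. Without that library, the log2 fold changes were -1.004 for *H2-Aa*, -0.97 for *H2-Ab1*, -0.99 for *H2-Eb1* and -1.02 for *Cd74*.

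The class II levels rest on few reads. The counts per library ranged from 9 to 79 for *H2-Aa* in control mice and from 4 to 31 in PLX5622 mice, and for *Cd74* from 30 to 212 and from 31 to 107. Because the added 1 TPM compresses changes of low genes, the fold changes on the deposited counts were larger: with edgeR they were -1.43 for *H2-Aa*, -1.33 for *H2-Ab1*, -1.28 for *H2-Eb1* and -1.15 for *Cd74*.

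*B2m* was the most abundant of the 10 genes and the class I gene that fell. Its control libraries ranged from 147 to 257 TPM around a median of 198 TPM, and its PLX5622 libraries from 128 to 199 TPM around 149 TPM. Of the PLX5622 libraries, 23 of 24 were below the control median and 9 were below every control library. The mean fell from 202 ± 26.4 TPM (SD, n = 23) to 154 ± 18.4 TPM (SD, n = 24), a log2 fold change of -0.39 with a standard error of 0.05 (limma, adjusted p = 8.2e-08). On the counts the value was nearly the same, -0.40 with edgeR.

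The heavy chain gene *H2-K1* did not pass the test, with 24.5 to 45.2 TPM (median 37.3 TPM) in control and 27.2 to 48.4 TPM (median 36.8 TPM) in PLX5622 mice. The ranges overlapped except at their ends, with 1 PLX5622 library above every control library, and the log2 fold change was 0.01 (95% interval -0.11 to 0.13, limma, adjusted p = 0.94). Its sign turned with the scaling and the tool, to -0.02 with edgeR.

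The other heavy chain gene, *H2-D1*, had 23.5 to 45.5 TPM (median 34.1 TPM) in control and 24.5 to 42.4 TPM (median 30.8 TPM) in PLX5622 mice. Its mean was 91.3% of the control mean, and the log2 fold change of -0.12 (95% interval -0.24 to 0.00) did not pass the test (limma, adjusted p = 0.32). On the deposited counts it did, at -0.16 with edgeR (adjusted p = 0.021) and -0.16 with DESeq2 (adjusted p = 0.015), where edgeR called 4.99% of 16960 genes lower. So 5 members were called lower on the TPM values and 6 on the counts. *H2-K1* and *H2-D1* are near-identical in places: 22.8% and 26.7% of the 31-base words of their transcripts also occur in other genes, among them each other, so reads of the pair could be exchanged. Of words of 150 bases, the length of a read, *H2-K1* shared none with another gene and *H2-D1* shared 1.35%, with *H2-Q1*.

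The peptide-loading genes did not pass the test. *Tap1* had a mean of 1.66 ± 0.344 TPM in control and 1.55 ± 0.368 TPM in PLX5622 mice (SD, n = 23 and 24). *Tap2* had 4.66 ± 0.763 and 4.25 ± 0.569 TPM, and *Tapbp* 16.5 ± 2.64 and 16.04 ± 1.78 TPM. Their log2 fold changes were -0.06, -0.10 and -0.03, with 95% intervals from -0.17 to 0.06, from -0.21 to 0.00 and from -0.14 to 0.09 and limma adjusted p of 0.66, 0.32 and 0.86. Of the transporter's subunits, *Tap2* thus had the more abundant transcript in both diets. When diet labels were permuted within Zeitgeber times, the unadjusted two-sided p was 0.048 for *Tap2*, 0.049 for *H2-D1*, and 1e-05, the smallest that the permutations can give, for *B2m* and each class II gene. Without control ZT18 replicate 3, the log2 fold changes of the class I genes were -0.40 for *B2m*, -0.0029 for *H2-K1*, whose sign turned, -0.14 for *H2-D1*, -0.07 for *Tap1*, -0.12 for *Tap2* and -0.05 for *Tapbp*, and *B2m* remained the only one called.

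**Figure D2:**
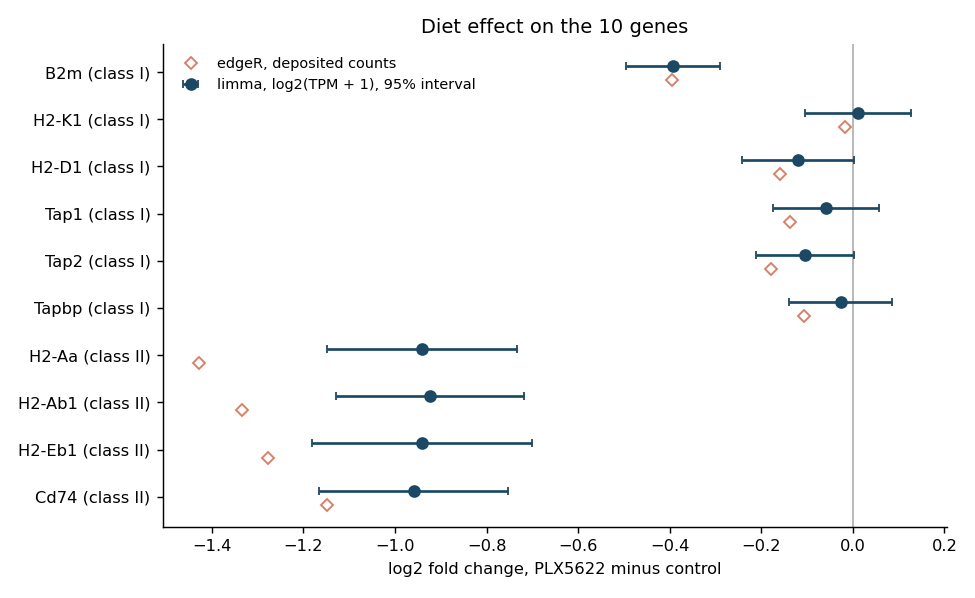
Log2 fold change between diets (x axis, PLX5622 minus control) of the 10 genes from limma on log2(TPM + 1) with 95% intervals (circles) and from edgeR on the counts (diamonds). The class II genes lie near -0.94 on the TPM scale and between -1.43 and -1.15 on the counts, *B2m* at -0.39, and the intervals of the other class I genes reach 0.

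No member separated the diets completely, as 0.583% of genes did with every PLX5622 library below every control library. Within a Zeitgeber time, however, all PLX5622 libraries were below all control libraries at 5 of 6 times for *H2-Aa*, *H2-Ab1* and *Cd74* and at 4 for *H2-Eb1* and *B2m*. Such a pattern at 4 or more times was found in 1.11% of genes tested.

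In absolute terms, the order of loss was different from the order of fold change. The mean of *B2m* fell by 48.5 TPM and the sum of the 4 class II genes fell by 12.1 TPM, while the difference in the sum of *H2-K1* and *H2-D1* was -2.75 TPM. The ratio of *B2m* to the summed heavy chain transcripts within a library was 2.84 ± 0.212 in control mice (range 2.49 to 3.25) and 2.24 ± 0.151 in PLX5622 mice (range 1.96 to 2.56), and the ranges overlapped only between 2.49 and 2.56. This ratio was chosen after the values were seen, and it was not tested. The 4 class II genes summed to 6.94 ± 1.42% of the 6 class I genes in control mice and to 3.56 ± 0.618% in PLX5622 mice. The ratio of *H2-Aa* to *H2-Ab1* had a median of 1.04 in control (0.522 to 1.41) and 0.903 in PLX5622 mice (0.293 to 2.99). The transcripts of the heterodimer's chains thus stayed near equal in the median, while single libraries varied widely.

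In control mice the levels ran from *B2m* over *H2-K1*, *H2-D1*, *Tapbp*, *Cd74*, *Tap2*, *H2-Eb1*, *H2-Ab1* and *H2-Aa* to *Tap1*. *B2m* exceeded *H2-K1*, *H2-D1* exceeded *Tapbp* and *Tapbp* exceeded *Cd74* in all 23 libraries. The neighbours *H2-K1* and *H2-D1* kept this order in 16 of 23 libraries and *H2-Ab1* and *H2-Aa* in 10 of 23, so their order was within the spread. In PLX5622 mice, *Cd74* exceeded *Tap2* in only 10 of 24 libraries, against 22 of 23 in control mice.

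Of 10 genes tested that supply and load class I peptides, 2 fell and none rose, with a median log2 fold change of -0.02. Both that fell encode catalytic subunits of the immunoproteasome, the form of the proteasome that interferon induces. *Psmb8* fell from 6.93 ± 1.40 to 4.42 ± 1.295 TPM (log2 fold change -0.57, adjusted p = 6.9e-06) and *Psmb9* from 2.59 ± 0.664 to 1.94 ± 0.712 TPM (log2 fold change -0.30, adjusted p = 0.016). The other catalytic subunit of this complex, *Psmb10*, had 113 ± 13.3 and 113 ± 12.8 TPM (log2 fold change -0.01, adjusted p = 0.94), and the activator subunits *Psme1* and *Psme2* had log2 fold changes of -0.02 and -0.07 (adjusted p = 0.79 and 0.46). These 3 were named after their values were seen. Of the other class I and class I-like genes, 9 of 17 passed the filter and none was called, and their median log2 fold change was -0.0030. The most abundant of them, *Fcgrt*, the neonatal Fc receptor that also pairs with β2-microglobulin, had 20.96 ± 3.57 and 18.9 ± 2.39 TPM (log2 fold change -0.14, adjusted p = 0.21).

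Of the other class II and class II processing genes, 6 of 13 passed the filter, 4 fell and none rose, with a median log2 fold change of -0.55. *Ctss*, the protease that trims the invariant chain, fell from 94.3 ± 9.33 to 8.62 ± 4.49 TPM, to 9.14% of its control mean (log2 fold change -3.50, adjusted p = 4.5e-22). *Ifi30*, a lysosomal thiol reductase, fell from 3.90 ± 0.929 to 2.18 ± 0.647 TPM. *H2-DMb1*, part of the molecule that exchanges class II peptides, fell from 1.96 ± 0.644 to 1.02 ± 0.717 TPM, and the protease gene *Lgmn* from 70.5 ± 11.8 to 49.0 ± 7.23 TPM. The log2 fold changes of these 3 were -0.63, -0.59 and -0.51 (limma, largest adjusted p 9.1e-05, for *H2-DMb1*). Of the 6 genes tested in this list, *Ctss* had by far the largest change. Genes under the filter were not tested. Among them, *Cd86* had 1.38 and 0.150 TPM, with all 24 PLX5622 libraries below every control library. *H2-Oa* had 0.680 and 0.143 TPM and *H2-Ob* 0.511 and 0.187 TPM, while *Cd40* had 0.562 and 0.546 TPM. They are named outside the rule for named genes and after their values were seen.

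Of 12 transactivator and interferon signalling genes tested, 2 fell, none rose, and the median log2 fold change was 0.0047. *Irf8*, a transcription factor of myeloid cells, fell from 3.73 ± 0.799 to 0.813 ± 0.298 TPM (log2 fold change -1.38, adjusted p = 2.9e-22) and *Ifngr1*, a chain of the interferon gamma receptor, from 10.3 ± 1.42 to 7.42 ± 1.33 TPM (log2 fold change -0.43, adjusted p = 2.6e-08). The master regulators of class II and class I transcription, *Ciita* and *Nlrc5*, were under the filter, at 0.307 and 0.214 TPM in control and 0.323 and 0.351 TPM in PLX5622 mice. They are named for their role, outside the rule for named genes and after their values were seen. None of 17 interferon-stimulated genes tested was called, and their median log2 fold change was -0.01. The most abundant, *Ifi27*, had 66.0 ± 9.42 and 68.0 ± 9.41 TPM. Of the receptors of class I and class II molecules, 2 of 8 passed the filter and 1 fell: *Lag3*, which binds class II, from 6.70 ± 1.40 to 0.947 ± 0.485 TPM (log2 fold change -2.01, adjusted p = 1.4e-23).

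**Figure D3:**
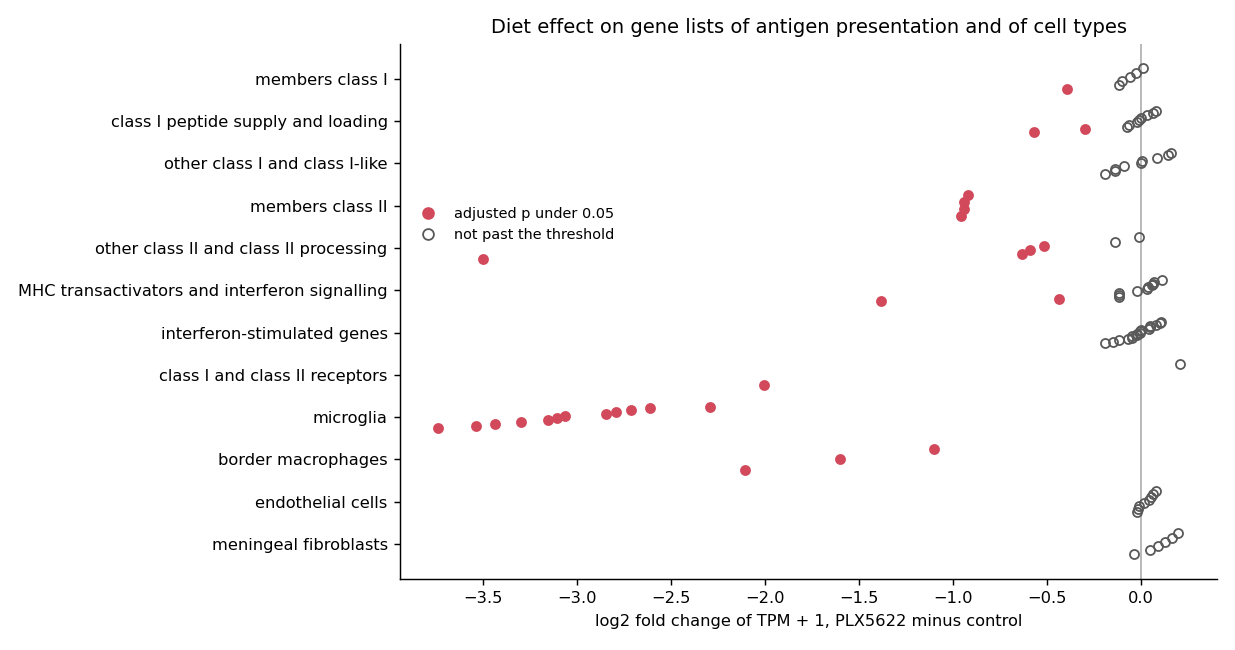
Log2 fold change between diets (x axis, PLX5622 minus control, TPM + 1) of each gene tested in 12 lists (rows); filled red points were called and open points were not. The class II genes lie near -0.94, between the class I genes (-0.39 to 0.01) and the microglial genes (-3.74 to -2.29).

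Lists of cell types that could hold these transcripts were examined beside the members. The 12 microglial genes fell to 11.1% of their control sum, with log2 fold changes from -3.74 to -2.29, and the 10 border macrophage genes to 15.8%, with 3 of 3 tested genes called lower. The control sum of the border macrophage list was 12.7 to 26.4 TPM and that in PLX5622 mice 1.22 to 4.51 TPM. The class II sum fell less, to 41.8%. The dendritic cell list stood at 96.2% of its control sum (3.81 to 9.01 TPM in control and 4.05 to 7.32 TPM in PLX5622 mice), with 2 of 8 genes tested and none called. The sum rested mostly on those 2, *Zbtb46* (3.02 and 3.16 TPM) and *Flt3* (1.45 and 1.56 TPM), while among the genes under the filter *Cd209a* had 0.547 and 0.0923 TPM, with 17 of 24 PLX5622 libraries below every control library, and *Itgax* 0.141 and 0.0728 TPM. The B cell list stood at 71.6%, with *Ighm* the 1 of its 6 genes tested and called lower. The T and NK cell list summed to 0.389 to 4.73 TPM in control and 0.319 to 5.19 TPM in PLX5622 mice. No gene of these lists was listed at 0 in all libraries. Of the endothelial, mural and meningeal fibroblast lists, 8, 6 and 6 genes were tested and none was called, at 102%, 104% and 110% of their control sums. The choroid plexus list went the other way, to 150% of its control sum (70.0 to 1194 TPM in control and 149 to 1277 TPM in PLX5622 mice), with 2 of 8 genes called higher. The part of these cell types in the members' changes was not tested.

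All 4 class II genes and *B2m* had a lower mean in PLX5622 mice at each of the 6 Zeitgeber times, and for each of the 5 the difference was smallest at ZT18. There the log2 fold changes were -0.29 for *H2-Aa*, -0.42 for *H2-Ab1*, -0.59 for *H2-Eb1*, -0.69 for *Cd74* and -0.20 for *B2m*. The control libraries at ZT18 include the replicate that stood apart, and *H2-Aa* had 0.729, 1.77, 3.29 and 3.38 TPM in them against 1.39, 1.44, 1.46 and 1.76 TPM in PLX5622 mice. For *B2m* the values were 147, 167, 185 and 198 TPM against 132, 147, 149 and 179 TPM. The lowest of these control values was that of replicate 1, not of replicate 3, which stood apart in class II. Replicate 1 also had the lowest *H2-K1* (24.5 TPM) and *H2-D1* (23.5 TPM) of all control libraries. At the other times the log2 fold changes of the class II genes ranged from -1.48 (*H2-Eb1* at ZT2) to -0.67 (*H2-Eb1* at ZT6), and those of *B2m* from -0.54 at ZT10 to -0.36 at ZT6. The standard errors at a single time were 0.12 to 0.13 for *B2m* and 0.23 to 0.30 for the class II genes. The other class I genes lay on both sides of 0, from -0.30 (*Tap2* at ZT10) to 0.24 (*Tapbp* at ZT18). When all 8 libraries at ZT18 were left out, a choice made after the data were seen, the log2 fold changes were -1.08 for *H2-Aa*, -1.03 for *H2-Ab1*, -1.01 for *H2-Eb1*, -1.02 for *Cd74* and -0.44 for *B2m*, and 5 members were called lower.

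**Figure D4:**
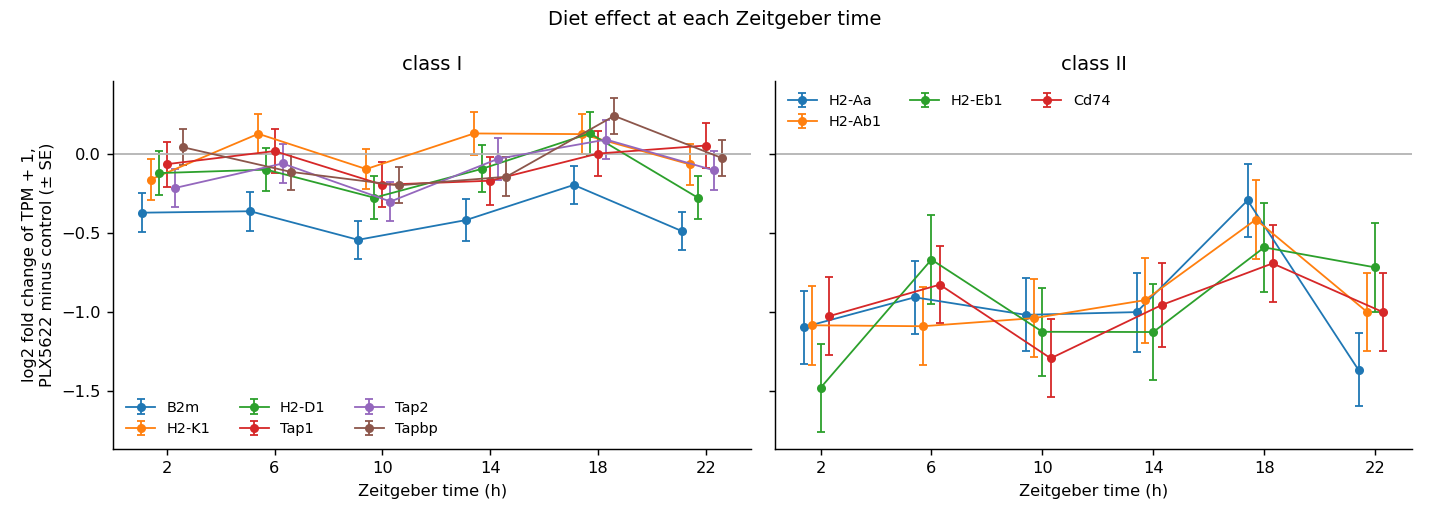
Log2 fold change between diets (y axis, PLX5622 minus control, TPM + 1, bars are the standard error) at each Zeitgeber time in hours (x axis) for the class I genes (left) and the class II genes (right). The class II genes and *B2m* were below 0 at all 6 times and nearest to 0 at ZT18.

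A daily rhythm was not detected in any of the 10 genes. JTK_CYCLE, a rank test for a 24-h cycle, called 0 of 10 members in either diet, where it called 0.0137% of genes in control and 0.261% in PLX5622 mice. At such low shares, 0 calls among 10 members does not show that they lack a rhythm. By this test 0 members had an unadjusted p under 0.05, where 754 of all 14580 genes did in control and 994 in PLX5622 mice. The lowest unadjusted p was that of *Tapbp* in control mice, 0.19 (from the exact distribution of the rank statistic, adjusted p = 1). Other tests of the control libraries gave *Tapbp* a lower unadjusted p, of 0.0030 with Zeitgeber time as a factor in limma (adjusted p = 0.17) and of 0.0017 with edgeR (adjusted p = 0.068), and edgeR gave *Tap1* an unadjusted p of 0.034 (adjusted p = 0.25). The fitted cosine of *Tapbp* on the log2(TPM + 1) scale had an amplitude of 0.15 with a standard error of 0.061 and a peak at ZT 8.66 in control mice, and an amplitude of 0.01 with a standard error of 0.047 in PLX5622 mice. The amplitudes of the class II genes were 0.10 to 0.22 in control mice, with standard errors of 0.11 to 0.12.

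Whether the daily pattern itself differed between diets was tested with the interaction of diet with the cosine and sine of ZT. limma called 0 members and 0 of all genes (0%), and 0 members and 669 genes had an unadjusted p under 0.05. With edgeR and DESeq2 on the counts 0 members were called and 1, *Tapbp*, had an unadjusted p under 0.05 (0.020 and 0.018, adjusted p of 0.86 and 1), as did 974 and 1254 of all genes. The unadjusted limma p ranged from 0.15 for *Tapbp* to 0.70 for *Cd74*, and no member passed with Zeitgeber time as a factor either. On simulated data of this design, 86.8% of genes with a rhythm of log2 size 1 from trough to peak in a single diet were recovered with limma. The amplitudes above run from the midline to the peak, so they are not on the same scale as that size. They are also smaller than the simulated amplitude, and recovery at their size was not simulated.

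Control libraries also differed among themselves in the microglial genes, and the members were compared with this spread within each diet. The level of microglial genes, the mean log2(TPM + 1) of the 12, ranged from 4.57 to 5.13 in control and from 0.816 to 2.60 in PLX5622 libraries, and no correlation was taken over both diets because they form separate clusters. In all 20 correlations were computed, and their permutation p-values (two-sided) are not adjusted.

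In control mice, 8 of 10 members had a p under 0.05. Many other genes correlated as closely: of all genes, 13.1% had an r at least that of *H2-Aa*, the lowest of the 8. The share was 10.1% for *Cd74* and 50.8% for *H2-Eb1*, which did not pass. The share of all genes with a p under 0.05 is not given here. *B2m* had the highest correlation, with Pearson's r = 0.84 and Spearman's rho = 0.87 (n = 23, permutation p = 1e-05 for both, the smallest that the permutations can give), and r = 0.85 without the 2 libraries farthest from the median. Of all genes, 0.0754% had an r as high as *B2m*, and the median r of all genes was 0.27. *H2-D1* followed with r = 0.80 and rho = 0.81 (permutation p = 1e-05 for both), also r = 0.80 without those 2 libraries.

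The next members were close to each other: *Tapbp* with r = 0.72 (rho = 0.66), *Tap2* with r = 0.68 (rho = 0.75), *H2-Ab1* with r = 0.68 (rho = 0.65) and *H2-K1* with r = 0.67 (rho = 0.59). Their permutation p for r ranged from 0.0001 to 0.00042, and without the 2 farthest libraries r was 0.74, 0.68, 0.66 and 0.70. *Cd74* had r = 0.56 (permutation p = 0.0046, rho = 0.57) and *H2-Aa* r = 0.53 (permutation p = 0.0081, rho = 0.44), and r without the 2 libraries was 0.65 and 0.54. Both no longer passed when the means of the Zeitgeber times were removed, with r = 0.37 (permutation p = 0.081) and r = 0.25 (permutation p = 0.24). *H2-Eb1* with r = 0.26 (permutation p = 0.22) and *Tap1* with r = 0.05 (permutation p = 0.83) did not pass. The r of *H2-D1*, which was not called between diets on the TPM values, was above that of all 4 class II genes, a difference that was not tested. The points share the depth and the dissection of each library.

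In PLX5622 mice, 0 of 10 members passed with Pearson's r, which ranged from -0.03 for *H2-Aa* to 0.36 for *Tap1* (permutation p = 0.89 and 0.081), around a median of -0.03 over all genes. By Spearman's rho *Tap1* had 0.42 (permutation p = 0.045), and without the 2 farthest libraries its r was 0.24. *B2m* had r = 0.11 (permutation p = 0.60).

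**Figure D5:**
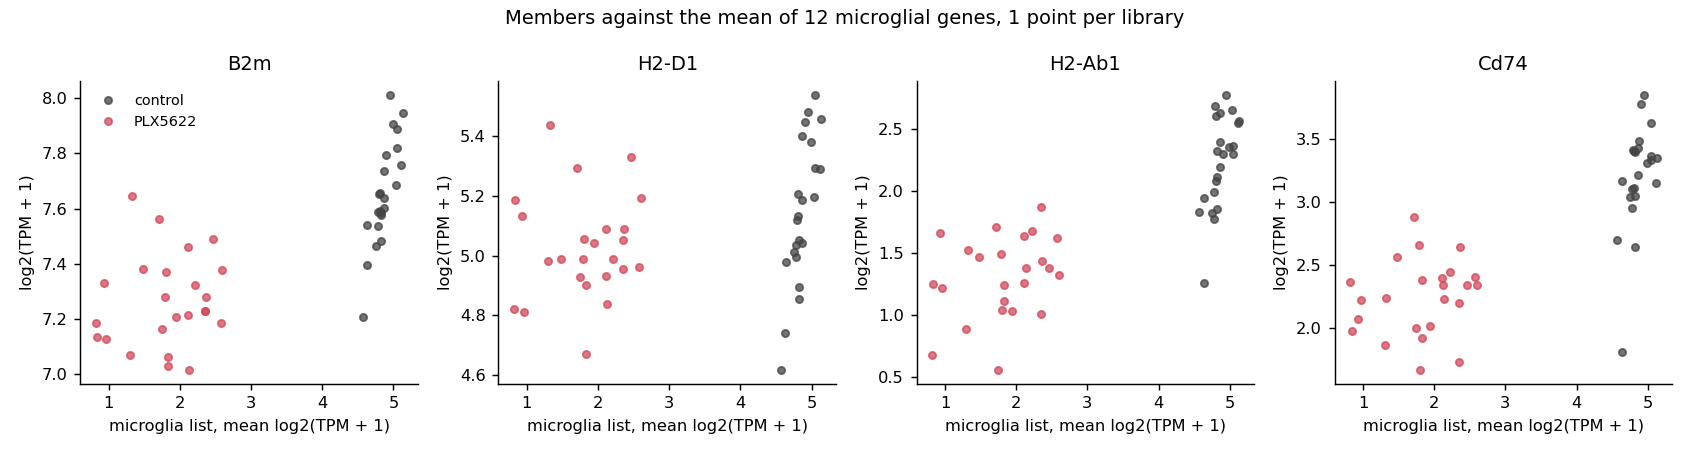
Log2(TPM + 1) of *B2m*, *H2-D1*, *H2-Ab1* and *Cd74* (y axes, not from 0) against the mean log2(TPM + 1) of 12 microglial genes (x axis), 1 point per library. The diets form separate clusters, and within the control cluster r was 0.84, 0.80, 0.68 and 0.56, while within the PLX5622 cluster it was 0.11, 0.07, 0.30 and 0.17.

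The genes most like each class were sought after the means of the 12 groups were removed from all 47 libraries, so that neither diet nor Zeitgeber time contributed. Among the genes whose deviations were most like the mean of the class I genes were *Col1a2* (r = 0.87), *Tmbim6* (0.85), *Vtn* (0.84), *Tgfbr2* (0.84), *Slc2a1* (0.83), *Cs* (0.81) and *Zmpste24* (0.81), where the median r of 14570 genes was 0.29. Of these, *Col1a2* encodes a chain of collagen I, *Vtn* vitronectin, and *Slc2a1* the glucose transporter of the brain's endothelium. *Tgfbr2* was lower in PLX5622 mice (log2 fold change -0.38, limma, adjusted p = 4.8e-06).

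The 8 genes most like the class II mean were *Aldh1a2* (r = 0.77), *Tgm2* (0.76), *Ogn* (0.75), *Ptgds* (0.75), *Slc22a8* (0.73), *Bmp7* (0.72), *Serping1* (0.72) and *Wfikkn2* (0.72), around a median of 0.13 over all genes. *Aldh1a2*, the retinoic acid synthesis enzyme, and *Ogn*, a small proteoglycan, are known from the fibroblasts of the meninges, and *Ptgds* encodes the prostaglandin D synthase. Only *Tgm2* of these was called between diets (log2 fold change -0.23, limma, adjusted p = 0.033). The lists of meningeal fibroblasts, mural and endothelial cells correlated with the class I mean at r = 0.86, 0.81 and 0.81 and with the class II mean at r = 0.53, 0.55 and 0.39. The microglial list did so at r = 0.33 and 0.21 and the border macrophage list at r = 0.13 and 0.17. These correlations are descriptions over libraries that share depth and dissection, and were not tested. They pool both diets, and the microglial mean had an SD of 0.149 in control and 0.552 in PLX5622 libraries. Its pooled r thus rests more on the depleted libraries. Within control mice, r of single members with microglial genes ran from 0.05 (*Tap1*) to 0.84 (*B2m*). Such values within a diet are not given here for the other cell type lists, so the lists cannot be ranked by these r.

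The deviations of the members were also compared in pairs, without a background of other gene pairs. The median r was 0.56 over the 15 pairs within class I (0.10 to 0.83), 0.51 over the 6 pairs within class II (0.19 to 0.67) and 0.37 over the 24 pairs between the classes (-0.09 to 0.62). Within class I, the pairs of *Tap1* had r from 0.10 to 0.29, below the median between the classes. These r too come from libraries that share depth and dissection, and were not tested.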

How the data were processed

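Cortex RNA from 47 mice was sequenced as paired-end reads of 150 bases on NovaSeq and HiSeq instruments, and which instrument served a library is not given in the sources used here. The authors aligned reads with STAR 2.7.0f and estimated TPM with Salmon 1.0.0 on GRCm38.p6 with a Gencode annotation. Their processing notes also name mm10, featureCounts, edgeR and limma. The deposited TPM table held 54281 genes. A second deposited table, named as FPKM, held whole-number counts of 54532 genes and was used as counts. Genes were named through GENCODE M21.

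Values were processed with Python 3.11.15 (numpy 2.4.6, pandas 2.3.3, scipy 1.17.1, matplotlib 3.10.9) and R 4.3.3 (limma 3.58.1, edgeR 4.0.16, DESeq2 1.42.0). TPM was analysed as log2(TPM + 1) for 14580 genes (mean TPM of 1 or more), with no added scaling. A fold change on this scale understates that of low genes. The diet effect was tested with limma with cosine and sine of Zeitgeber time as covariates, and the rhythm difference with their interactions with diet, each adjusted by Benjamini-Hochberg over all genes tested. JTK_CYCLE was written out for a period of 24 h and 6 phases. Correlations used 100000 permutations. Adjustment over the members alone was planned but is not given. p-values of group comparisons measure the spread between mice. The mice shared cages, and which of them shared a cage is not given in the sources used here. The part of the cage in the group differences was therefore not tested. Alternatives were other filters, pseudocounts, scalings, tools and covariates, each library left out in turn, and all of ZT18 left out.

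The members and gene lists were chosen with earlier results of these data known. Named genes were the members, the genes called in each pathway list with the 4 largest absolute fold changes (the most abundant gene where none was called) and the 8 genes most like each class, of which 1 is not reported here. Control and PLX5622 mice share replicate numbers, and same-numbered libraries deviated together at most weakly. Their r ranged from -0.093 to 0.199 over 23 pairs, with a median of 0.072 and 7 over 0.1. The main fits used no block, and fits with a replicate block are given below. No replicate pair agreed within sampling noise (lowest chi-square per degree of freedom 4.56 over 69 pairs). The sequencing covariates of the study were not used here. On simulated counts of 14177 genes with a log2 change of 1, limma recovered 100% of genes changed by diet, with 4.31% of its calls false. For rhythms, whose change of 1 ran from trough to peak, JTK_CYCLE recovered 81% of rhythmic genes in the control and 87% in the PLX5622 design. Promoters came from RefSeq.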

Additional observations from a re-analysis of the deposited data

Results flagged for a closer look

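A single library lay far from the other 3 of its group in 3 of 110 groups of 4 libraries examined, where chance gives about 1 in 20, or 5.5. In PLX5622 mice at ZT10, *B2m* was 175 TPM in replicate 1 against 139 to 145 TPM in the others. In the same group *H2-Ab1* was 2.08 TPM in replicate 4 against 1.33 to 1.40 TPM. In PLX5622 mice at ZT14, *Tap2* was 3.98 TPM in replicate 2 against 4.80 to 4.94 TPM.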

How the results depend on the processing

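With each library left out in turn, the number of members called lower stayed at 5, no member was called higher, and the number of all genes called between diets ranged from 429 to 634 around 503. Over the other alternatives the log2 fold changes ranged from -1.44 to -0.94 for *H2-Aa*, from -1.34 to -0.92 for *H2-Ab1*, from -1.28 to -0.94 for *H2-Eb1*, from -1.15 to -0.96 for *Cd74* and from -0.44 to -0.39 for *B2m*, always past the threshold. With a filter of at least 5 TPM 2 members were called lower, because *H2-Aa*, *H2-Ab1*, *H2-Eb1*, *Tap1* and *Tap2* were not tested. All genes called were then 298, and 2558 with 3 residual principal components, 1210 with edgeR, 1278 with edgeR without a filter, 1204 with edgeR and RLE factors, and 1350 with DESeq2, and the cause was not tested. *H2-K1* turned sign, to -0.0125 with median-of-ratios scaling, -0.0140 with upper-quartile scaling, -0.0169 with edgeR, -0.0110 with edgeR without a filter, -0.0188 with edgeR and RLE factors, -0.0192 with DESeq2 and -0.0170 without ZT18, and it ranged from -0.0132 to 0.0281 with a library left out. *H2-D1* passed with edgeR (adjusted p = 0.021), edgeR without a filter (adjusted p = 0.037), edgeR with RLE factors (adjusted p = 0.019) and DESeq2 (adjusted p = 0.015), while its adjusted p with limma without ZT18 was 0.095.

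With the replicate block, 5 members were called lower, 0 higher, and 578 genes in all, and the rhythm difference called 0 members and 0 genes. The block changed no call of a member. With 3 residual principal components 237 genes were called for the rhythm difference and no member. No alternative called a member as rhythmic. In control mice the number of rhythmic genes, 2 with JTK_CYCLE, was 36 with cosine and sine in limma, 68 with the replicate block added, 55 with Zeitgeber time as a factor, 263 with edgeR, 0 without a filter, 7 at 5 TPM or more, 20 with median-of-ratios scaling and 0 to 8 with a library left out. In PLX5622 mice, 38 became 135, 153 with the block, 150, 399, 22 without a filter and 67 with median-of-ratios scaling, and 22 to 54 with a library left out.

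The number of members correlated with microglial genes stayed at 8 in control mice with each library left out. In PLX5622 mice it became 1, *Tap1*, by Spearman's rho and on log2(CPM + 1), and ranged from 0 to 1 with a library left out, being 1 (*Tap1*, r up to 0.45) without PLX5622 ZT2 replicate 2 or PLX5622 ZT22 replicate 4. Weak correlations turned sign. *Tap1* in control mice had rho = -0.00198 and r = -0.27 with Zeitgeber time means removed, and -0.14 to 0.21 with a library left out. In PLX5622 mice, without the 2 farthest libraries, r was -0.0480 for *H2-K1* and -0.00785 for *H2-Eb1*. *H2-Aa* had 0.0548 on log2(CPM + 1), 0.0212 with Zeitgeber time means removed and -0.198 to 0.0846 with a library left out, *H2-D1* -0.0319 to 0.19 and *Tapbp* -0.0276 to 0.20. The low counts of the class II genes limit the precision of a single library.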
